A study of Arabidopsis thaliana with 6 samples.

Results

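Cytochrome P450 genes were compared between whole seedlings of the Arabidopsis thaliana accession Col-0 fumigated with ozone and seedlings fumigated with scrubbed air. The members are the probe sets that the platform's annotation table assigns to 1 gene whose symbol is CYP followed by a family number, a subfamily letter and a gene number. The table gives 23 such genes, each with 1 probe set, among the 13356 genes that a probe set of the Affymetrix ATH1 array names alone. The array has 22810 probe sets in all. RefSeq lists 236 genes with a symbol of this form, so 9.7% of them are described here. For 8730 probe sets that are not array controls the table gives no gene symbol. A P450 gene outside the members may thus still have a probe set on the array. The members fall into 5 of 40 families. Subfamily CYP71B holds 19 of them, and CYP51G2, CYP78A9, CYP79A2 and CYP84A4 are the only members of their subfamilies. The rule did not use any measured value.

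P450s are heme enzymes that use molecular oxygen and electrons from NADPH to hydroxylate or otherwise oxidise small molecules. In plants most of them sit in the membrane of the endoplasmic reticulum and receive electrons from an NADPH-dependent reductase. They act in the synthesis of lignin, hormones, sterols, glucosinolates and phytoalexins, and genes of one subfamily often lie side by side on a chromosome. CYP71B is a large subfamily in Arabidopsis whose best known enzyme, CYP71B15 or PAD3, completes the synthesis of the phytoalexin camalexin. CYP71B15 is not among the members. For most genes of the subfamily no role is stated here.

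The ozone group had 500 ppb ozone for 6 h in sealed chambers, and the control group had air scrubbed with charcoal and purafill for the same time. Both groups were Col-0 plants at developmental stage 1.04, grown at 20 °C on 0.8% agar plates under 16 h of light and 8 h of dark, and their RNA was extracted directly after fumigation. Each group had 3 replicates with 1 array each. A value is a MAS5 signal intensity, which is linear and has no unit. No label says whether replicates were separate cultures, and p-values then reflect the spread among these arrays only, which may be technical. In RNA from whole plants, fewer cells of a type and less RNA per cell cannot be told apart.

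The median signal of an array was 41.7 to 49.5. Spearman correlations across probe sets were 0.952 to 0.983 within groups and 0.879 to 0.930 between them. The arrays numbered 1 in both groups shared a deviation from their group means, as described under processing. Of 14 marker genes of leaf, root, guard cell and phloem, 5 are named alone by a probe set in the annotation table. The light-harvesting gene LHCB4.2 (805 to 2420) and the root gene PYK10 (1806 to 3350) were bright on every array. LHCB4.2 and the root hair gene EXPA7 fell with ozone (log2 fold changes -0.84 and -0.94, limma adjusted p = 0.0312 and 0.0101), and 0 markers rose. The ozone signals of EXPA7, 21.5 to 28.2, were all under the filter level described below, so it was tested through its higher control signals, and with 16 added to every signal its log2 fold change was -0.63. The values were -0.57 for EXPA18, -0.33 for PYK10 and -0.34 for the guard cell gene FMA, and none of these passed. With the replicate number as a block PYK10 passed too (limma adjusted p = 0.00754), so that 3 of the 5 markers fell. Of all tested probe sets, 14.9% fell without the block and 30.0% with it. The summed signal of the 3 root markers was 2235 to 3440 in the controls and 1857 to 2478 with ozone. Most of that sum was PYK10 alone, at 2154 to 3350 in the controls and 1806 to 2420 with ozone. No marker measured here was at 0. The part of shifts between tissues in the P450 values was not tested.

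With ozone, 2 of the 23 P450 genes rose and 2 fell in the main comparison, which has no replicate block (3 and 3 with it). CYP71B6 and CYP71B23 rose about 3-fold (2.96 and 3.14), whereas CYP71B34 and CYP71B28 fell, with control over ozone ratios of 1.95 and 1.75. All 4 belong to CYP71B, as do all 7 members that were tested, so no call could fall in another subfamily. The other 19 members include 3 that were tested and did not pass and 16 too dim to enter the test. A member was tested where its mean log2 signal over all 6 arrays reached the 40th percentile of all probe sets, a signal of 31.2, and limma's moderated test was used, with p-values adjusted by the Benjamini-Hochberg method across the 13648 probe sets that entered. Of these, 28.0% passed an adjusted p of 0.05, 13.0% higher and 14.9% lower. Without the filter the same 4 members passed, 17.4% of the 23, against 16.4% of 22746 probe sets. Without both arrays numbered 1 the counts were also 2 and 2. Among the 7 tested members the share was 57.1%, but these are the members that passed the filter, and the share is given as a description.

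**Figure D1:**
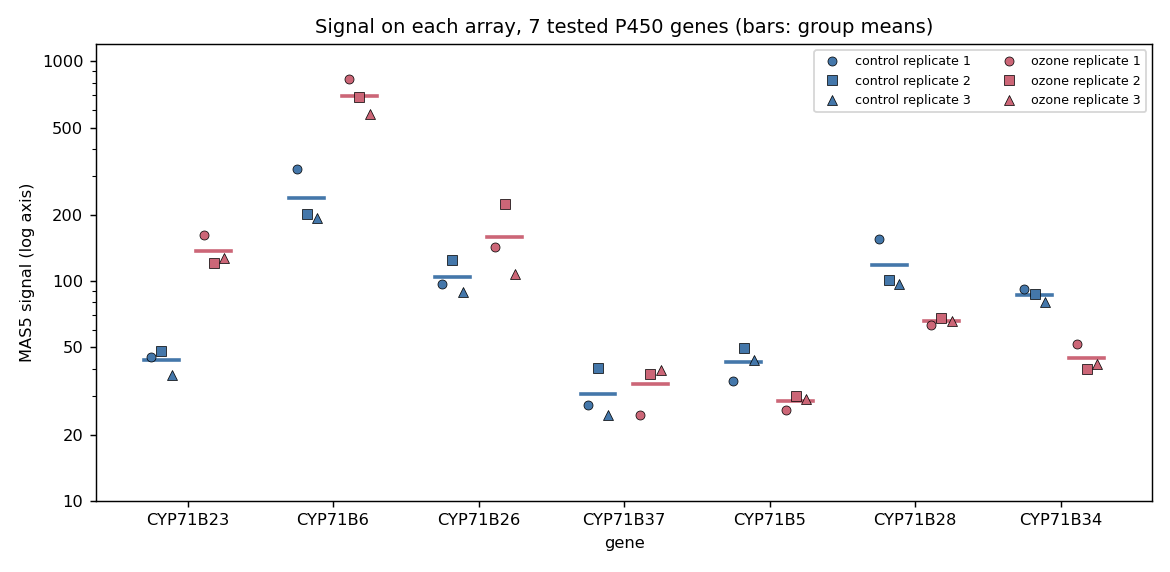
MAS5 signal (log axis) of the 7 tested P450 genes on each array, control in blue and ozone in red, with marker shapes for replicates 1 to 3 and horizontal bars for group means. The ozone points of CYP71B23 and CYP71B6 lie above all control points, those of CYP71B5, CYP71B28 and CYP71B34 lie below, and the groups overlap for CYP71B26 and CYP71B37.

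CYP71B6 (AT2G24180, chromosome 2) encodes an enzyme that converts indole-3-acetonitrile, a tryptophan product, to indole-3-carbaldehyde and indole-3-carboxylic acid. Its signals were 322.4, 201.8 and 194.7 in control replicates 1, 2 and 3 and 830.4, 686.5 and 578.3 in ozone replicates 1, 2 and 3. Replicate 1 was the highest array in both groups, and the groups did not overlap. The mean went from 240 ± 71.8 to 698 ± 126 (SD, n = 3 each). On the log2 scale the change was 1.57 with a standard error of 0.237 (limma adjusted p = 0.00278). Within replicate numbers 1, 2 and 3 the log2 differences were 1.36, 1.77 and 1.57. The difference was thus present in each pair of same-numbered arrays.

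CYP71B23 (AT3G26210, chromosome 3) had signals of 45.1, 48.1 and 37.4 in the controls and 162.7, 121.0 and 127.9 with ozone. Every ozone array was far above every control array. The mean went from 43.5 ± 5.52 to 137 ± 22.4 (SD, n = 3 each). On the log2 scale the change was 1.65 with a standard error of 0.194 (limma adjusted p = 0.000908). With 16 added to every signal, which damps low values, the log2 fold change was 1.36 for CYP71B23 and 1.50 for CYP71B6. Both genes kept their call in every alternative run, CYP71B6 with adjusted p up to 0.0153 and CYP71B23 up to 0.00565.

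CYP71B34 (AT3G26300, chromosome 3) showed the opposite direction. Its signals were 92.4, 86.9 and 80.4 in the controls and 51.9, 40 and 41.9 with ozone, and the groups were well apart. The mean went from 86.6 ± 6.01 to 44.6 ± 6.39 (SD, n = 3 each). On the log2 scale the change was -0.96 with a standard error of 0.182 (limma adjusted p = 0.00695). It kept the call in all 18 alternatives in which it was tested, with adjusted p up to 0.0320. With the filter at the 60th percentile, a signal of 67.4, it was not tested.

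CYP71B28 (AT1G13090, chromosome 1) had signals of 155.8, 101.1 and 96.6 in the controls and 63.3, 67.7 and 65.7 with ozone. Control replicate 1 stood above the other controls, while the ozone arrays lay close together and below all controls. The mean went from 118 ± 33.0 to 65.6 ± 2.20 (SD, n = 3 each). On the log2 scale the change was -0.81 with a standard error of 0.216 (limma adjusted p = 0.0266). Within replicate numbers the log2 differences were -1.30, -0.58 and -0.56, so the pair numbered 1 differed most. The call was narrow: the adjusted p was 0.0577, 0.0728 and 0.0573 without ozone replicate 1, 2 or 3, 0.0515 without control replicate 2, and 0.0567 after median centring of the arrays.

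Of the 3 tested members that did not pass, CYP71B5 (AT3G53280) had signals of 35.0, 49.8 and 43.8 in the controls and 25.8, 30.1 and 29.2 with ozone. The ozone arrays lay below the controls without overlap, and the ozone mean of 28.4 was under the filter level. The log2 fold change was -0.58 (95% interval -1.06 to -0.10, limma adjusted p = 0.0705). It passed with the replicate number as a block (0.0363) but not with the block and quantile normalization (0.0542), and it passed without control replicate 1 (0.0408).

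CYP71B26 (AT3G26290) had signals of 97, 125.3 and 89.3 in the controls and 142.9, 224.1 and 107.2 with ozone. The lowest ozone array was below the highest control array. The log2 fold change was 0.55 (95% interval -0.09 to 1.20, limma adjusted p = 0.178), and 0.268 without ozone replicate 2. Within replicate numbers the differences were 0.56, 0.84 and 0.26, all upward, and the gene passed with the block (limma adjusted p = 0.0139).

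CYP71B37 (AT3G26330) had signals of 27.3, 40.1 and 24.7 in the controls and 24.7, 37.8 and 39.3 with ozone. The groups overlapped and the gene moved in both directions within replicate numbers. The log2 fold change was 0.15 (95% interval -0.49 to 0.79, limma adjusted p = 0.729). Its geometric mean signal of 31.6 is just above the filter level, and that of CYP51G2, 25, is the closest below it. Of the 7 tested members, 6 had the same sign within every replicate number. The same share over all probe sets was not computed, so this count is given as a description. With the replicate number as a block 3 rose and 3 fell, which is 85.7% of the 7. In that fit 49.1% of all tested probe sets passed, 19.1% higher and 30.0% lower.

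**Figure D2:**
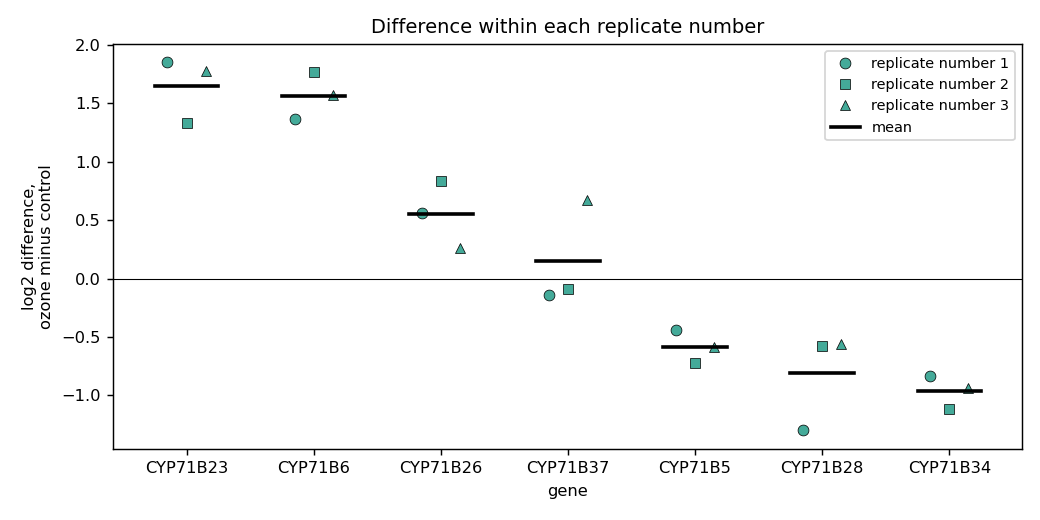
Log2 difference, ozone minus control, between arrays of the same replicate number for the 7 tested P450 genes, with black bars at the mean. CYP71B37 is the gene whose points lie on both sides of 0, and CYP71B28 has its largest fall at number 1.

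The 16 members below the filter had signals of 0.4 to 52.8, and 11 of them stayed below 31.2 on every array. That is 69.6% of the members, against 40% of all probe sets. They are CYP71B16, CYP71B21, CYP71B22, CYP71B24, CYP71B25, CYP71B27, CYP71B29, CYP71B30P, CYP71B31, CYP71B35, CYP71B36, CYP71B38, CYP51G2, CYP78A9, CYP79A2 and CYP84A4. CYP71B21, CYP71B30P, CYP71B31 and CYP79A2 were under a signal of 3 on all 6 arrays. MAS5 signals this low hold much noise, and detection calls were not used here. In the fit without the filter 0 of the 16 passed by limma (adjusted p 0.0613 to 0.974), and 1 had an unadjusted p under 0.05.

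That member was CYP78A9 (AT3G61880), whose enzyme promotes growth of fruits and seeds. Its signals were 24.1, 13.6 and 24.9 in the controls and 9.1, 1.8 and 6.0 with ozone. The groups did not overlap, though every signal was below the filter level. The log2 fold change was -2.13 (95% interval -3.61 to -0.65, limma adjusted p = 0.0613 without the filter), or -0.77 with 16 added to every signal. With the block and no filter it passed (adjusted p = 0.0106), as did CYP71B16 narrowly (0.0499). In that fit 7 of the 23 members (30.4%) passed, against 29.0% of all probe sets.

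CYP71B24 had 19.1, 18.9 and 17.1 in the controls and 32.2, 23.9 and 27.0 with ozone, the only dim member with all ozone arrays above all controls. Its log2 fold change was 0.58 (limma adjusted p = 0.173 without the filter). CYP71B22 reached 52.8 in ozone replicate 1 against 24.2 and 21.6 in ozone replicates 2 and 3, with 11.3, 17.2 and 26.4 in the controls. Its groups overlapped, and the difference within replicate numbers ran from 2.22 for number 1 to -0.29 for number 3.

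The members of the remaining subfamilies did not enter the test, and none of them passed in the fit without the filter. CYP84A4, whose enzyme hydroxylates p-coumaraldehyde in the synthesis of arabidopyrones, had 11.7, 22.5 and 23 in the controls and 17.8, 37.7 and 20.8 with ozone (log2 fold change 0.40, 95% interval -0.56 to 1.37 without the filter). CYP79A2, which makes the oxime from phenylalanine that leads to benzylglucosinolate, had signals of 0.6 to 1.7. CYP51G2, which RefSeq lists as a transcribed pseudogene and which is a paralog of the sterol demethylase CYP51G1, had 14.7 to 35.6 (log2 fold change -0.11). CYP71B27 is also a transcribed pseudogene in RefSeq. CYP71B30P is named as a pseudogene, though RefSeq lists it as protein-coding. The log2 fold changes of CYP71B27 and CYP71B30P were 0.49 and 0.34 with overlapping groups.

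**Figure D3:**
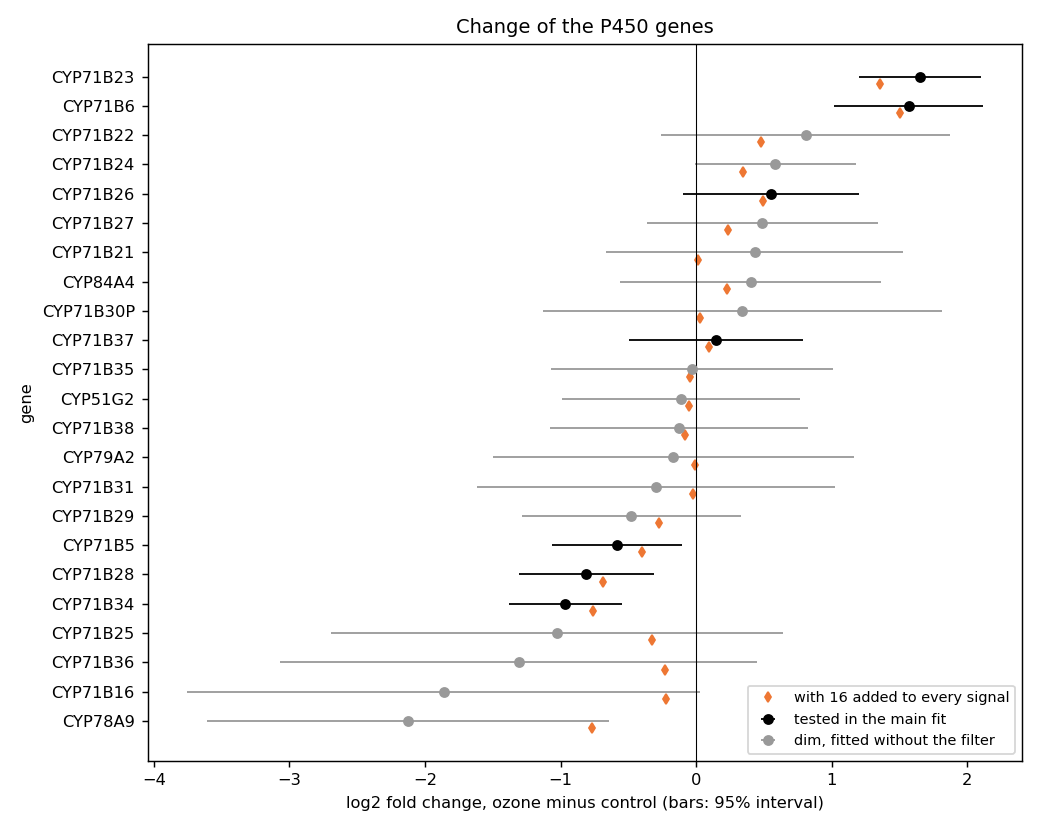
Log2 fold change of the 23 P450 genes with 95% intervals, in black for the tested genes and in grey for the dim genes fitted without the filter. Orange diamonds give the value with 16 added to every signal, which moves the dim CYP78A9 from -2.13 to -0.77 and CYP71B16 from -1.86 to -0.22.

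Over all 23 members the log2 fold changes ran from -2.13 to 1.65, with 10 positive and 13 negative. For 5 of the 16 dim members, and 0 of the 7 tested ones, the sign turned in at least 1 alternative. The median of all 23 members was -0.11, beside -0.167 over all 22746 probe sets that are not array controls. The groups did not overlap for 7 of the 23 members (30.4%), 3 with ozone above and 4 with ozone below. Of all probe sets 35.5% had no overlap, 13.8% with ozone above and 21.8% with ozone below. Within CYP71B 9 genes had positive and 10 negative log2 fold changes, with a median of -0.03. Genes that passed in this subfamily were found on both sides.

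The gene order in RefSeq, used here for neighbours only, places 16 members on chromosome 3, 3 on chromosome 1, 2 on chromosome 2 and 2 on chromosome 5. A run of 24 genes on chromosome 3 from CYP71B16 to CYP71B37 holds 18 P450 genes, of which 11 are members. The first gene of the run, the dim CYP71B16, had a log2 fold change of -1.86, or -0.22 with 16 added to every signal. Further along, CYP71B21, CYP71B22, CYP71B23 and CYP71B24, parted only by CYP71B3, had log2 fold changes of 0.43, 0.81, 1.65 and 0.58. CYP71B23 was the one tested gene among them, and CYP71B21, with signals of 0.4 to 0.7, had 0.01 with 16 added to every signal. After 6 genes that are not P450s both signs were again found, in part at dim genes. CYP71B25 had -1.03, CYP71B26 0.55, CYP71B34 -0.96, CYP71B35 -0.03, CYP71B36 -1.31 and CYP71B37 0.15. The sign of CYP71B35 turned with quantile normalization (0.06) and median centring (0.04). Of the 11 members of the run 1 rose, 1 fell, 2 did not pass and 7 were not tested. CYP71B26 and CYP71B34, with log2 fold changes of opposite sign, are separated by a single gene, CYP71B33.

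Other members also have neighbours among the P450 genes. On chromosome 1 CYP71B28 lies directly beside CYP71B29, which had 34.7, 24.5 and 27.2 in the controls and 32.0, 16.8 and 15.9 with ozone. The groups of CYP71B29 overlapped (log2 fold change -0.48, limma adjusted p = 0.414 without the filter). Both genes had negative differences within all 3 replicate numbers. On chromosome 3 CYP71B5 is followed by CYP71B30P, whose signals were 0.6 to 2.4 on the 6 arrays. Paralogs this close can cross-hybridize, though 0 of the 23 member probe sets carry the array's suffixes for shared probes.

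Genes that work beside P450s were read from lists of 121 genes. Only 14 of these are named alone by a probe set, and 10 entered the test. Of the 10, 8 rose and 1 fell, with or without the block, where 13.0% of all tested probe sets rose and 14.9% fell (19.1% and 30.0% with the block). The control means of CCR2, JOX3 and JOX4 (15.4, 9.13 and 23.4) were under the filter level, so they were tested through their ozone signals and their folds are imprecise. The count of 8 includes these genes, so it depends in part on the filter and is given as a description. The member of the tryptophan and indole list with the smallest p was IGPS, indole-3-glycerol phosphate synthase, which acts upstream of the substrate of CYP71B6. It rose by a log2 fold change of 2.15 (limma adjusted p = 0.000104), and UGT74B1, which glucosylates glucosinolate precursors, rose by 0.71 (0.0174). The other 20 genes of that list were not analysed here, since no probe set names them alone in the table used. Of 3 tested phenylpropanoid genes CCR2 and HCT rose, by 2.83 (1.97 with 16 added to every signal) and 0.68 (limma adjusted p = 0.000489 and 0.0102), and 1 did not pass. All 4 tested jasmonate genes rose, among them the jasmonate oxidase gene JOX4 by 4.83 (4.11 with 16 added) and OPCL1 by 2.11 (limma adjusted p = 0.000253 and 0.000330). JOX3 and JOX4 are among these 4, so the same limit holds. The list has 6 genes that a probe set names alone, and the others were too dim to be tested. LCYB, the lycopene cyclase gene and the only tested gene of the carotenoid and sterol list, fell by 0.89 on the log2 scale (limma adjusted p = 0.00661).

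Of 9 genes listed as electron donors of P450s, 1 is named alone by a probe set in the table used, the reductase gene ATR3. Its signals were 14.9 to 41.9, below the filter on average (log2 fold change 0.05). Whether ATR3 passes electrons to P450s was not tested here. The glucosyltransferase gene UGT71B6, the measured gene of the abscisic acid list, was also below the filter. It had 0.4 on every control array and 11.6, 23.2 and 3.5 with ozone (limma adjusted p = 0.00528 without the filter), and its log2 fold change of 4.62 became 0.75 with 16 added to every signal. The lists for gibberellin and brassinosteroid and for cutin, suberin and wax have 0 genes that a probe set names alone in the table used. Whether unnamed probe sets measure them was not examined.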

How the data were processed

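The authors deposited 1 MAS5 signal intensity per probe set and array, on a linear scale. MAS5 is named, without a version, per the submitters' processing notes. MAS5 scales each array, and all 6 arrays had a mean of 100.0 once the outer 2% at each end were dropped. For this work zeros (95 in all) were replaced by the array's smallest positive signal, and log2 was taken without further normalization. The 64 control probe sets were dropped, as were those under the 40th percentile of mean log2 signal. The 2 groups were compared over 13648 probe sets with limma 3.58.1 (R 4.3.3; lmFit, then eBayes with a variance trend, two-sided), with Benjamini-Hochberg adjustment. The code was tested on simulated data. Signed changes are ozone minus control. With 3 arrays in a group precision is limited.

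All 23 members matched a RefSeq locus (TAIR10.1, used for names and gene order). The naming rule took members past the threshold, tested members of their families that did not pass, the 6 with the highest mean signal and the symbols of dim members. At most 2 genes per pathway list, those of smallest p, were named. The dim members given with values, ATR3 and UGT71B6 were singled out after their values were seen. The members, gene lists and tests were chosen with earlier results of these data known. The titles give replicate numbers 1 to 3 in each group but not their meaning. Deviations of same-numbered arrays from their group means correlated across probe sets with r = 0.747, 0.374 and 0.439. All were above 0.1, the level set for reading the numbers as pairs. Deviations within a group sum to 0, so one shared by the arrays numbered 1 can by itself raise the other values. Whether numbers 2 and 3 pair arrays thus cannot be told from these values. The main comparison was set without a block, as the labels name no covariate. A blocked fit is quoted where a call of a member or marker differs in it. Alternatives covered scaling, added constants, the filter, the variance model, the block, shared probe sets, membership by RefSeq symbol and each array left out. The RefSeq symbols of all 23 members match, so membership by RefSeq symbol could not change a count. Leaving out shared probe sets removed no member and could act only through the other probe sets of the fit. Leaving out both arrays numbered 1, and joining the block with no filter, were chosen after seeing the data.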

Additional observations from a re-analysis of the deposited data

Results flagged for a closer look

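A probe set that the annotation table assigns to both CYP71B20 and CYP71B19, neighbours in the run on chromosome 3, lies outside the members because its signal cannot be attributed to either gene. It drew attention because its ozone signals, 174.9, 213.3 and 190.5, were all above its control signals of 127.8, 116.7 and 142.4. The log2 fold change was 0.5809 (limma adjusted p = 0.0298, and 0.00848 with the block). Groups with ozone above control and no overlap were found at 13.8% of all probe sets that are not array controls.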

How the results depend on the processing

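CYP71B6, CYP71B23 and CYP71B34 kept their direction and call in every alternative in which they were tested. The number of P450 probe sets that rose was 2 in the main comparison and 2 or 3 in the alternatives. The number that fell was 2, and 1 after median centring, where CYP71B28 lost its call, and 1 with the filter at the 60th percentile, where CYP71B34 was not tested. Leaving out each array in turn gave 1 to 3 that fell, and 2 that rose each time. Without both arrays numbered 1 there were 2 and 2. With the replicate number as a block 3 rose and 3 fell, and without the filter and with the block 3 and 4. Across the array the block gave 4097 probe sets lower and 2602 higher, against 2039 and 1777, and 3815 lower with quantile normalization. Without the filter and with the block the counts were 3799 lower and 2795 higher. Without control replicate 2, control replicate 3 or ozone replicate 2 they were 1072, 987 and 991 lower. The block changed the calls of CYP71B26 and CYP71B5 and no other tested member. The causes were not tested. No log2 fold change of the 7 tested members turned its sign. Of the 16 dim members 5 turned in at least 1 alternative: CYP71B35 under scaling and left-out arrays, and CYP51G2, CYP71B38, CYP71B30P and CYP79A2 with left-out arrays. The dim members have no detection calls here, so signal over background limits what can be said of 16 of the 23.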

Other observations

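CYP718 is a P450 gene whose symbol has no subfamily letter and so falls outside the rule. Its signals were 2.6, 2.8 and 2.5 in the controls and 2.1, 2.0 and 2.3 with ozone. The groups do not overlap, yet all 6 values are far under the filter level (limma adjusted p = 0.674 without the filter). A further probe set, assigned to CYP79C2 together with AT1G58265, had 4.3 to 15 with overlapping groups.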
